A study of Homo sapiens with 6 samples.

Results

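Prostaglandin E2 (PGE2) is a lipid messenger of inflammation, and 9 genes of its production, removal and reception were followed in U87, a human glioma cell line long in use. They are PLA2G4A, PTGS1, PTGS2, PTGES, PTGES2, PTGES3, HPGD, PTGER2 and PTGER4. Each Affymetrix PrimeView probe set whose only gene symbol in the platform annotation was one of these names was taken, which gave 29 of 49395 probe sets and all 9 of the genes, out of 18132 genes measured. The rule names the genes and uses no measured value, but the set was drawn up with earlier results of these data known.

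PGE2 is made from arachidonic acid. Cytosolic phospholipase A2, the product of PLA2G4A, frees the acid from membrane lipids. The cyclooxygenases COX-1 (PTGS1, present in many cells at all times) and COX-2 (PTGS2, induced by inflammatory cytokines such as IL-1β) convert it to prostaglandin H2, and the terminal synthases encoded by PTGES, PTGES2 and PTGES3 turn that into PGE2. The hydroxyprostaglandin dehydrogenase encoded by HPGD inactivates it. PGE2 acts on neighbouring cells through receptors such as EP2 (PTGER2) and EP4 (PTGER4), which raise cyclic AMP. In gliomas, as in many other tumours, COX-2 and PGE2 are known for their effects on tumour-infiltrating immune cells.

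The cells carried 1 of 3 constructs in pcDNA. The control held the empty vector (1 array), 3 clones, numbered 3, 5 and 9, expressed full-length human IL-33, and 2 clones expressed IL33 DNLS, which lacks the nuclear localization signal (ΔNLS, clones 3 and 4). IL-33 belongs to the IL-1 cytokines and also enters the nucleus. All were stable transfectants under G418 selection, and each array other than the control held 1 clone. No label states how many cultures gave the RNA. With 1 array per clone, the spread of clones, of cultures and of arrays cannot be told apart. The p-values rest on this joint spread and on a prior drawn from all genes. The control was a single array which has no spread of its own, so that of the clones stood in for it.

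The values are log2 signals. A level of 4.80, the 95th percentile of olfactory receptor genes, was taken as background. IL33 lay below it in the control (3.46) and between 6.40 and 9.50 in the 5 clones. The median of all probe sets was 5.43 on both ΔNLS arrays and 5.61 to 5.62 on the rest, so ΔNLS and its pair of arrays cannot be told apart. Among 5630 genes not above background on any array the median difference of ΔNLS clones from control was -0.19 (clone 3) and -0.14 (clone 4), against 0.01 to 0.03 in the full-length clones. Of 3 neighbouring genes known to be deleted in U87 cells, CDKN2A was at 4.87 in the control, 4.88 to 4.90 in the full-length clones and 3.99 and 3.89 in the ΔNLS clones, and it too was called lower in ΔNLS (-0.93 ± 0.11 SE, limma, adjusted p = 0.00331), while CDKN2B (-0.29, adjusted p = 0.128, not above background on any array) and MTAP (0.11, adjusted p = 0.492, above background on all 6 arrays) were not called. All 6 markers of a mesenchymal glioma line (VIM and CD44 among them) were above background. Of 5 leukocyte markers only AIF1 was above it on any array, and PTPRC and CD14 were below it on all 6 arrays. Of 3 endothelial markers, VWF was above it on all 6 arrays (5.49 to 5.79) and PECAM1 on 4. Of 2 epithelial markers 0 were above it on any array.

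Of the 9 genes, PTGS2 and PLA2G4A differed most in size between cells with full-length and nuclear-signal-deleted IL-33. PLA2G4A was at least 2-fold higher in each clone with full-length IL-33 than in the control, while the ΔNLS clones were at or below the level of the control (5.61 and 5.16 against 5.60). PTGS2 was graded among the full-length clones and lay below background in both ΔNLS clones. The signal of each gene on each array is shown in the plot of levels.

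**Figure D1:**
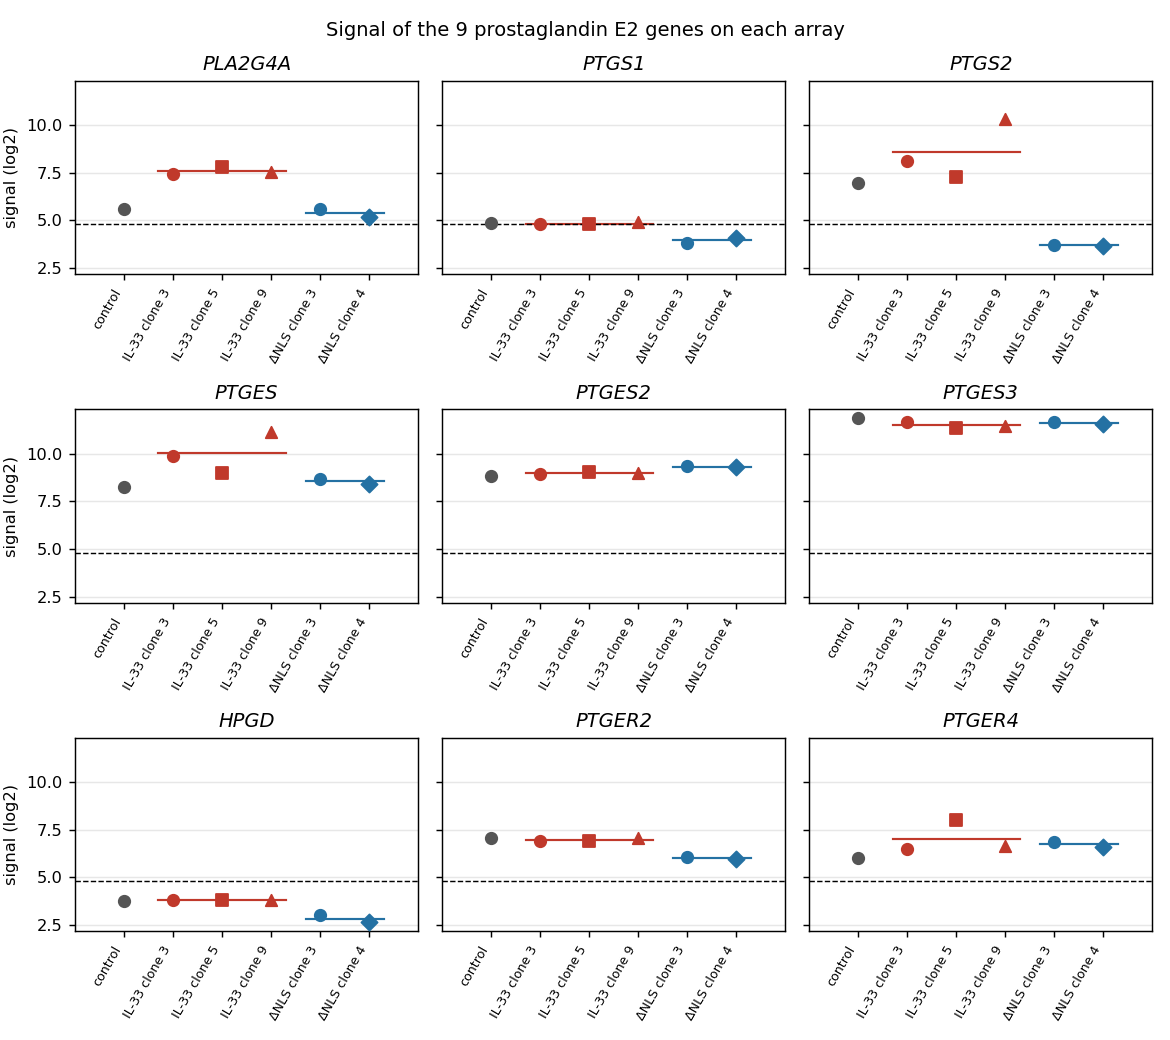
Signal (log2, y axis) of the 9 genes on the control (grey), 3 IL-33 (red) and 2 ΔNLS (blue) arrays, with the probe set of highest mean signal for each gene. Horizontal bars are the means of the clones and the dashed line is the background level of 4.80. PLA2G4A lies between 7.44 and 7.79 in the full-length clones against 5.60 in the control, and PTGS2 lies at 3.74 and 3.65, below background, in the ΔNLS clones.

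The upstream regions of the 3 genes whose signal varied most among the 9 are shown first, since the first of them, that of PTGS2, is a classical site of control by cytokines. They run from 250 bases before to 50 bases after the annotated start (RefSeq, GRCh38.p14), and all 9 genes were matched in that table, with 13 such regions in all. Capitals mark matches on either strand to a TATA box (TATAAA), a half-site of the cyclic AMP response element (CGTCA), a C/EBP motif (TTNNGCAAT), a loose NF-κB-like motif (GGG and CC, 5 bases apart) and an EGR1 motif (GCGTGGGCG).
PTGS2 promoter (GRCh38.p14, chr1:186680374-186680673, minus strand): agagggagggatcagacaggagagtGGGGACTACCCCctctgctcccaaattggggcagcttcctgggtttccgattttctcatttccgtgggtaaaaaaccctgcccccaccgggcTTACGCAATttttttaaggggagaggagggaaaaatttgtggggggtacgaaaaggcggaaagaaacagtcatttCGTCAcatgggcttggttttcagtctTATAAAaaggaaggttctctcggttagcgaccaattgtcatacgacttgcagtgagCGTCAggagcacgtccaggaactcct
PTGES promoter (GRCh38.p14, chr9:129752993-129753292, minus strand): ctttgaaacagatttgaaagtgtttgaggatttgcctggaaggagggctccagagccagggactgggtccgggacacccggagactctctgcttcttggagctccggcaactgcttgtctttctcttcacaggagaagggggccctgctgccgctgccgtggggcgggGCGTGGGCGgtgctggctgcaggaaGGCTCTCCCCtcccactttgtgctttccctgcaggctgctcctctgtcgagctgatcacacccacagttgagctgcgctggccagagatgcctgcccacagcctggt
PLA2G4A promoter (GRCh38.p14, chr1:186828699-186828998, plus strand): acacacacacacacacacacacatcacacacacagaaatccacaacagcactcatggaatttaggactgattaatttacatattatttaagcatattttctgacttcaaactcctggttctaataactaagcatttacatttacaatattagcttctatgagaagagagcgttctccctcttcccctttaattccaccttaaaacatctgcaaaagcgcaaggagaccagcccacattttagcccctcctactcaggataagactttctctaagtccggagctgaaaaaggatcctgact
The PTGS2 region held a TATA box from -32 to -27, a CGTCA from -58 to -54 and a further one from 25 to 29 downstream of the start, the C/EBP match TTACGCAAT from -133 to -125, and 3 overlapping NF-κB-like matches between -225 and -214. The PTGES region held the EGR1 motif from -82 to -74 and an NF-κB-like match on the minus strand from -57 to -48. The PLA2G4A region held none of these letters. Over all 35116 regions of that table the TATA box occurred in 11.5%, CGTCA in 24.6%, the C/EBP motif in 2.31%, the NF-κB-like motif in 58.7% and the EGR1 motif in 0.795%. The full element TGACGTCA, found in 1.85%, was in none of the 13. PTGS2 and PLA2G4A are neighbours on chromosome 1, with 0 protein-coding genes and 1 noncoding gene, PACERR, between them.

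The first step of the pathway is the release of arachidonic acid. PLA2G4A was at 5.60 in the control, at 7.44, 7.79 and 7.55 in full-length clones 3, 5 and 9, and at 5.61 and 5.16 in ΔNLS clones 3 and 4. The full-length clones thus lay together and above the other 3 arrays, which did not fall into groups of their own. Of the 9 genes it alone was at least 2-fold above the control in each of the 3, as were 1.5% of all genes. It rose 3.99-fold in IL-33 against control (log2 difference 2.0 ± 0.22 SE, limma, adjusted p = 0.0116) and was 4.62-fold higher in IL-33 than in ΔNLS (2.21 ± 0.17, adjusted p = 0.00101). The difference of ΔNLS from control was -0.21 (95% interval -0.79 to 0.37, adjusted p = 0.503). Only 1 probe set measured this gene, and in RNA of whole cultures more expressing cells and more RNA per cell cannot be told apart. Its signals in the control and the ΔNLS clones were close to those of MTAP (5.07 to 5.42), a gene known to be deleted in U87. How much of them was RNA of PLA2G4A was not tested. Without ΔNLS clone 3 or clone 4 the difference from control was the same and the call was lost (adjusted p = 0.103 in each case), as it was with only the IL-33 and control arrays fitted (0.103). Its difference from ΔNLS passed in all 13 alternatives.

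Cyclooxygenases form the second step. The control had PTGS2 at 6.98, and full-length clones 3, 5 and 9 had it at 8.13, 7.28 and 10.31. In the ΔNLS clones it was at 3.74 and 3.65. All 3 full-length clones were above the control and both ΔNLS clones below it, although clone 5 exceeded the control by only 0.29. Clone 9 exceeded it by 3.33. The mean of the full-length clones was 8.57 ± 1.57 (SD, n = 3), and its difference from control, 1.59 ± 1.07 SE, was not past the threshold (limma, adjusted p = 0.421, 95% interval -1.04 to 4.22). Without clone 9 it was 0.72 and without clone 5 it was 2.24, and neither passed.

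The difference of IL-33 from ΔNLS in PTGS2 was 4.88 ± 0.84 SE (limma, adjusted p = 0.00645). With the ΔNLS signal set to background, the mean of the full-length clones was at least 13.6-fold higher on the probe set used. For clone 5 alone that bound was 2.47 in log2. The difference of IL-33 from ΔNLS passed on each of the 3 PTGS2 probe sets, where it ranged from 3.96 to 4.88. With 1 ΔNLS clone left out it was 4.92 (without clone 3) or 4.84 (without clone 4) and no longer passed (adjusted p = 0.0939 and 0.0972). On the probe set used the ΔNLS clones were at least 4.53-fold below the control by the same bound. On the other PTGS2 probe sets the control was at 4.76, below background, and at 5.71. There ΔNLS differed from control by -2.18 and -2.33 and did not pass (limma, adjusted p = 0.25 and 0.192). On the probe set used the fit put the difference at -3.29 ± 1.13, with a spread that the graded full-length clones enter. It did not pass either (adjusted p = 0.0655). It passed when the full-length arrays were left out (0.0046), without full-length clone 5 (0.0337) and without clone 9 (0.00936). Over all 18132 genes, 6.79% were at least 2-fold lower than the control in both ΔNLS clones, as PTGS2 was.

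PTGS1 was near or below background throughout. It was at 4.85 in the control, at 4.81, 4.81 and 4.91 in full-length clones 3, 5 and 9, and at 3.84 and 4.09 in ΔNLS clones 3 and 4. The call of a lower level in ΔNLS against control (-0.89 ± 0.14 SE, limma, adjusted p = 0.00699) came down to a bound of -0.05 with the ΔNLS signal set to background. Of its other 3 probe sets, none of which was above background on any array, 2 were higher in both ΔNLS clones than in the control and averaging all 4 gave a difference of -0.06 (adjusted p = 0.767). The shift of dim genes in the ΔNLS arrays given above moved with this value, and its part was not tested. In IL-33 against control PTGS1 differed by -0.01 (95% interval -0.34 to 0.31).

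Among the terminal synthases, only PTGES varied widely. It encodes the microsomal synthase that is induced together with COX-2. The control had PTGES at 8.27, and full-length clones 3, 5 and 9 had it at 9.87, 9.00 and 11.15. The ΔNLS clones, at 8.68 (clone 3) and 8.41 (clone 4), were nearer the control. Each of the 5 clones exceeded the control, and the 3 full-length clones lay above both ΔNLS clones. The mean difference from control of the full-length clones was 3.33-fold (1.74 ± 0.75 SE, 95% interval -0.10 to 3.57) and fell short of the threshold (limma, adjusted p = 0.213). That of IL-33 from ΔNLS, 1.46 ± 0.59, did not pass either (adjusted p = 0.0877), except without full-length clone 5, where it was 1.97 (0.0181). On the other 2 probe sets of PTGES the full-length clones were also all above the control, and on 1 of them clone 5, at 8.08, lay below both ΔNLS clones (8.54 and 8.46).

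PTGES2 encodes a second membrane-associated synthase. It was at 8.83 in the control, 8.95 to 9.01 in the full-length clones and 9.37 and 9.27 in ΔNLS clones 3 and 4. It was higher in ΔNLS than in the control (0.49 ± 0.11 SE, limma, adjusted p = 0.02) and lower in IL-33 than in ΔNLS (-0.33 ± 0.08, adjusted p = 0.0215), on each of its 2 probe sets. Genes of chromosome 9, on which it lies, had medians of 0.16 in both ΔNLS clones and 0.13 to 0.17 in the full-length clones against the control, and the part of this in the result was not tested. Without ΔNLS clone 3 the first call was lost (0.44, adjusted p = 0.0625), and the second was lost without either ΔNLS clone (0.0816 without clone 3 and 0.0512 without clone 4) and without full-length clone 3 (0.058) or clone 9 (0.056).

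PTGES3, whose product is also the HSP90 cochaperone p23, was at 11.85 in the control, 11.36 to 11.64 in the full-length clones, and 11.65 and 11.57 in the ΔNLS clones. On this probe set all 5 clones were below the control by 0.20 to 0.48, and the differences of IL-33 (-0.36 ± 0.13 SE) and ΔNLS (-0.24 ± 0.13) from control did not pass (limma, adjusted p = 0.141 and 0.203). Its 4 probe sets all had an ending (x or s) that marks probes shared with other sequences, so related transcripts may enter the value. On 1 of them both ΔNLS clones (10.22 and 10.16) were above the control, and averaged over the 4 the difference of ΔNLS was -0.05. IL-33 against ΔNLS was -0.12 (adjusted p = 0.353), and it passed when its probe sets were averaged (-0.35, 0.0338) and with the arrays centred on their medians (-0.31, 0.0473).

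**Figure D2:**
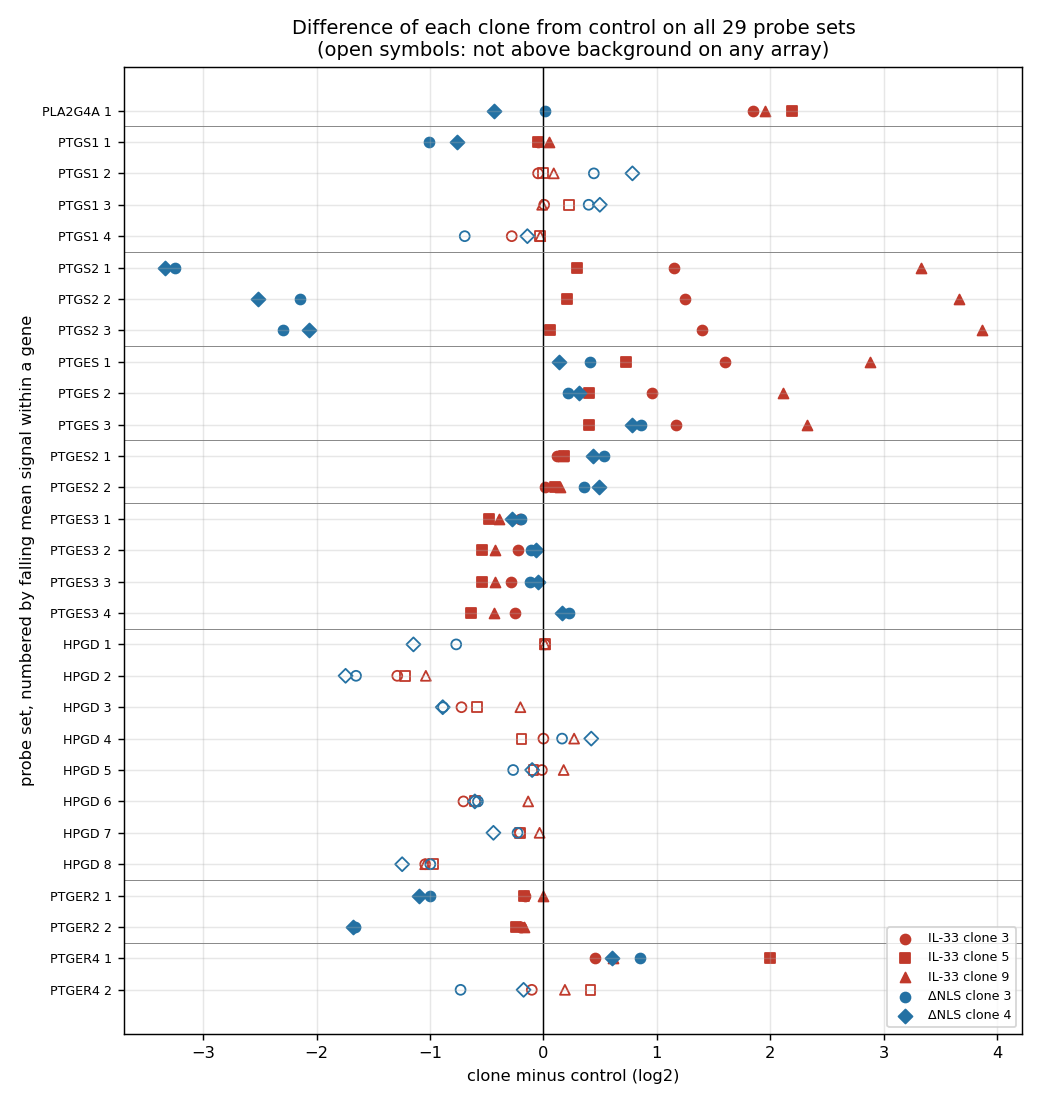
Difference of each clone from the control (log2, x axis) on all 29 probe sets (y axis), grouped by gene. Red symbols are full-length clones and blue symbols ΔNLS clones, and open symbols are probe sets not above background on any array. The 3 PTGS2 probe sets show the same order of the full-length clones, while all 8 HPGD probe sets are open.

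HPGD, the gene of PGE2 breakdown, was not above background on any array with any of its 8 probe sets, so no fold is given. On the probe set used it was listed at 3.79 in the control, at 3.80 in each of the full-length clones, and at 3.02 and 2.64 in the ΔNLS clones. The ΔNLS clones lay below the others there and were called lower (-0.96 ± 0.16 SE, limma, adjusted p = 0.00886). The probe sets did not behave alike: against control, differences of ΔNLS ranged from -1.70 to 0.29 and those of IL-33 from -1.18 to 0.03. HPGD lies on chromosome 4, whose 402 genes above background had medians of -0.75 and -0.81 in the ΔNLS clones and -0.35 to -0.56 in the full-length clones. The part of that shift and of the shift of dim genes in this call was not tested.

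Of the receptor genes, PTGER2 was lower in the ΔNLS clones, and PTGER4 was highest in 1 full-length clone. PTGER2 was at 7.05 in the control, at 6.89, 6.89 and 7.05 in full-length clones 3, 5 and 9, and at 6.05 and 5.96 in ΔNLS clones 3 and 4. The control and the full-length clones lay together and both ΔNLS clones below them. PTGER2 fell 2.07-fold in ΔNLS against control (-1.05 ± 0.13 SE, limma, adjusted p = 0.0041) and was higher in IL-33 than in ΔNLS (0.94 ± 0.10, adjusted p = 0.00171). Both calls held in all 13 alternatives, and on the other probe set the differences were larger (-1.67 and 1.46). In IL-33 against control the difference was -0.11 (95% interval -0.42 to 0.20). PTGER2 lies on chromosome 14, whose 385 genes above background had medians of -0.43 and -0.48 in the ΔNLS clones and -0.28 to -0.36 in the full-length clones, and the part of this in the result was not tested.

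The control had PTGER4 at 6.01, full-length clones 3, 5 and 9 had it at 6.46, 8.01 and 6.62, and the ΔNLS clones at 6.86 and 6.61. Every clone lay above the control and clone 5 stood apart, 1.39 above the next IL-33 clone. The differences from control, 1.02 ± 0.59 SE for IL-33 and 0.73 ± 0.63 for ΔNLS, did not pass (limma, adjusted p = 0.348 and 0.393). Without full-length clone 5 the first was 0.53 (adjusted p = 0.108), and the second, of the same size, passed (0.0206). The second probe set of PTGER4 was below background on all arrays, at 3.25 to 4.39.

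**Figure D3:**
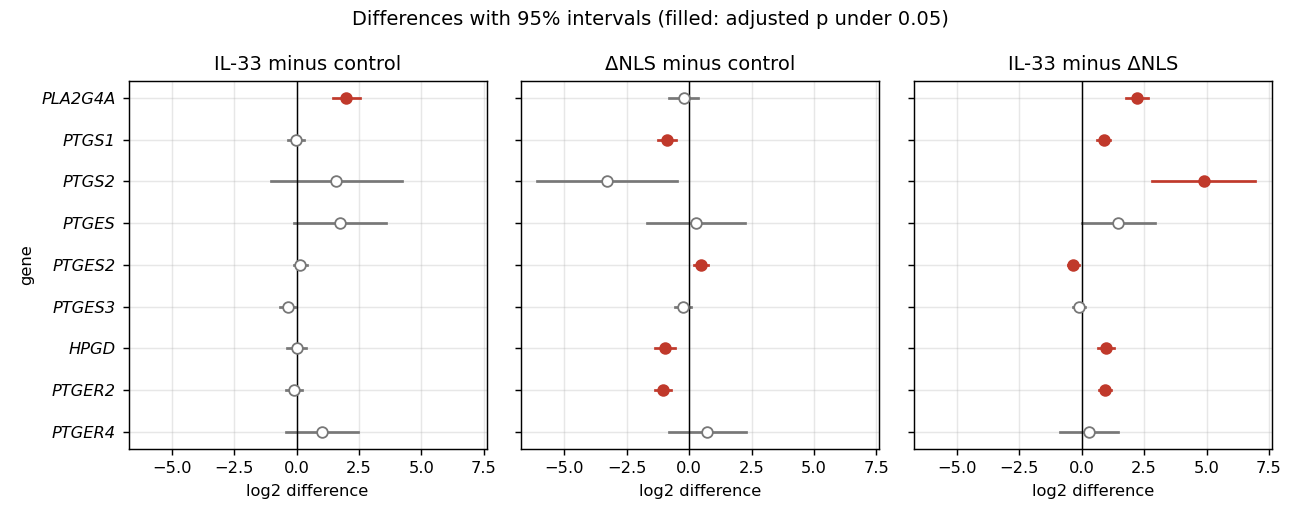
Log2 difference (x axis) of each of the 9 genes (y axis) in the 3 comparisons, with 95% intervals from limma, and filled symbols where the adjusted p was under 0.05. PLA2G4A passes in both comparisons of IL-33, PTGS2 in IL-33 against ΔNLS, and PTGER2 in both comparisons of ΔNLS.

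Counted over the 9 genes, 1 was higher, 0 were lower and 8 did not pass in IL-33 against control, where 7.65% of all genes were called (7.37% of single probe sets). In ΔNLS against control 1 was higher, 3 were lower and 5 did not pass, where 38.3% of all genes were called (23.5% lower, and 39.5% of single probe sets). In IL-33 against ΔNLS 5 were higher, 1 was lower and 3 did not pass, beside 47.5% of all genes (31.4% higher, and 47.0% of single probe sets). The median difference over the 9 genes was 0.16, -0.24 and 0.94 in these comparisons, and over all genes it was 0.04, -0.09 and 0.13. The direction of calls over all genes turned with the scaling. In ΔNLS against control it was 2680 higher and 4267 lower as deposited, 3615 and 2985 after quantile normalization, and 4241 and 2822 with the arrays centred on their medians. In IL-33 against ΔNLS it was 5697 higher and 2924 lower, 3783 and 4007, and 3538 and 4886. Of the 9 genes, 1 higher and 3 lower were called under each scaling in the former, and 5 higher and 1 lower (2 with centring) in the latter. The first pair of comparisons share the control array. Of the calls in ΔNLS, that of PTGS1 rested on ΔNLS signals not above background, and HPGD was not above it on any array.

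**Figure D4:**
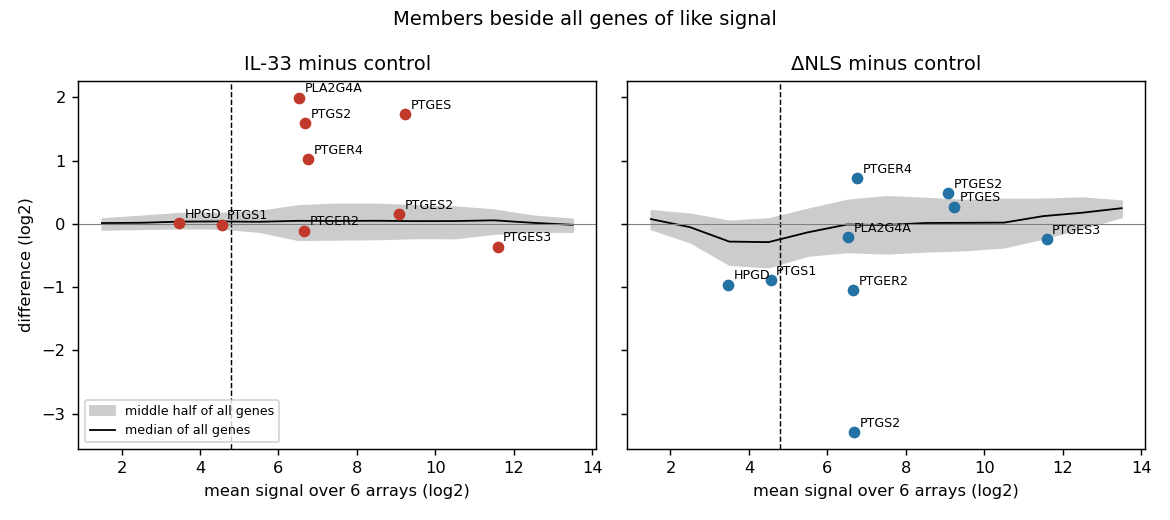
Mean difference from control (log2, y axis) of the full-length clones (left) and the ΔNLS clones (right) against mean signal over the 6 arrays (log2, x axis). Labelled points are the 9 genes, the line is the median and the grey band the middle 50% of all genes in bins of 1 log2 unit, and the dashed line is background. PTGS1 and HPGD lie in the range of signal where the line for ΔNLS is lowest (-0.29 for the bin of PTGS1 and -0.28 for that of HPGD). In ΔNLS, PTGS2, at -3.29 as fitted, lies far below the band. PTGS1 (-0.89), HPGD (-0.96), PTGER2 (-1.05) and, by little, PTGES3 (-0.24) also lie below it, and PTGES2 (0.49) and PTGER4 (0.73) above it.

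The clones were then set beside the level of the transfected gene. IL33 was highest in clone 9 (9.50), then clone 3 (8.38) and clone 5 (6.40). IL1B, whose product is a known inducer of PTGS2 and PTGES, was at 6.64 in the control, at 12.09, 11.68 and 13.50 in clones 3, 5 and 9, and at 5.18 and 5.50 in the ΔNLS clones. Of the 9 genes, PTGS2 and PTGES had this order of clone 9, 3, 5 and control, as did 4.46% of all genes. PLA2G4A and PTGER4 were highest in clone 5, where IL33 was lowest. The ΔNLS clones had IL33 at 6.50 and 6.62, near clone 5, while PLA2G4A was 2.18 and 2.63 lower in them than in that clone, and PTGS2, below background in them, was lower by at least 2.47. The constructs differ in sequence and in their arrays, and whether like IL33 signals mean like amounts of RNA was not tested. Against control IL33 itself did not pass in IL-33 or ΔNLS (limma, adjusted p = 0.0575 and 0.0774), nor did it between them (0.184).

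**Figure D5:**
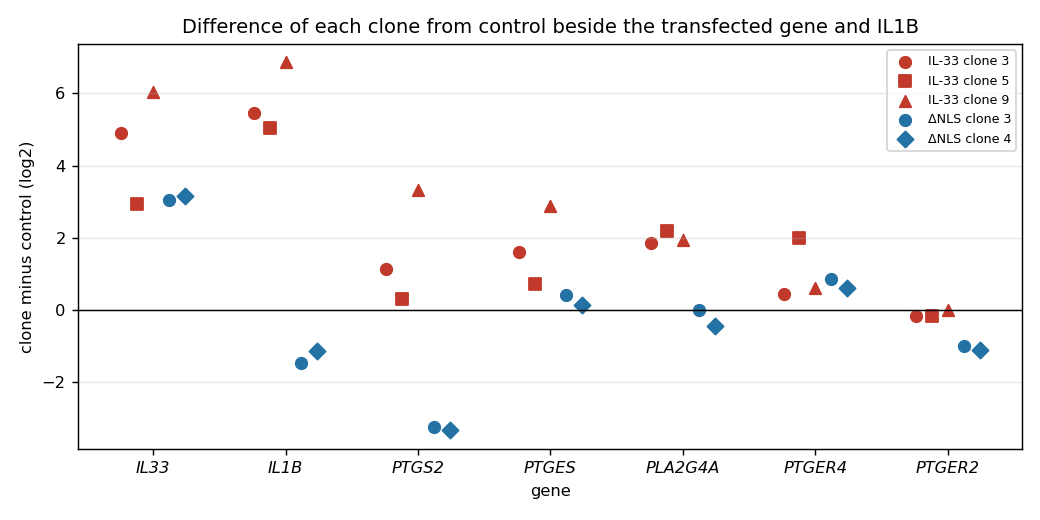
Difference of each clone from control (log2, y axis) for IL33, IL1B and 5 of the 9 genes (x axis), with full-length clones in red and ΔNLS clones in blue. Clone 9 (triangle) is highest and clone 5 (square) lowest among the full-length clones for IL33, IL1B, PTGS2 and PTGES, and clone 5 is highest for PLA2G4A and PTGER4.

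The genes whose 5 differences from control were most like those of PTGS2 were TCIM (root mean square difference 0.56), MMP3 (0.66), TMEM156 (0.95), CXCL3 (0.997) and CXCL8 (1.08), the last a chemokine of neutrophils. MMP3, a matrix metalloproteinase, was at 9.10 in the control, at 11.21, 10.40 and 12.35 in full-length clones 3, 5 and 9, and at 5.55 and 5.40 in the ΔNLS clones. For PTGES the most alike were NFKBIZ (0.37), TMSB15A (0.44), TNFAIP3 (0.48), BEX2 (0.49) and PAPPA (0.49). NFKBIZ and TNFAIP3, which encode regulators of NF-κB signalling, were 3.37 and 3.05 above the control in clone 9. These likenesses span 6 arrays and are descriptions.

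Other genes of the pathway were read from fixed lists. Of 15 other phospholipase A2 genes, 0 were higher, 1 was lower and 14 did not pass in IL-33 against control. In that comparison 7.65% of all genes were called. The 1 was PLA2G12A, a secreted phospholipase on chromosome 4, at 8.92 in the control, 7.42 to 7.87 in the full-length clones, and 6.96 and 7.05 in the ΔNLS clones. It fell in IL-33 (-1.31 ± 0.19 SE, limma, adjusted p = 0.0208) and in ΔNLS (-1.91 ± 0.20, adjusted p = 0.00271). In ΔNLS against control 4 of the 15 were higher and 6 lower, where 14.8% of all genes were higher and 23.5% lower, and PLA2G2A, PLA2G4C, PLA2G7, PLA2G4E and PLA2G4D among them were not above background on any array.

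Of 7 synthases of other prostanoids, 1 was higher in IL-33 against control, as were 3.65% of all genes. This was PTGDS, which makes prostaglandin D2, and it was not above background on any array. Of 6 genes of transport and breakdown 1 was lower in that comparison, as were 4.0% of all genes. That gene was PTGR2, a reductase of prostaglandin metabolites on chromosome 14. It was at 6.63 in the control, 5.71 to 5.91 in the full-length clones, and 5.09 and 5.31 in the ΔNLS clones, where its signals were close to those of MTAP (5.07 to 5.42). It fell in IL-33 (-0.83 ± 0.14 SE) and in ΔNLS (-1.43 ± 0.15; limma, adjusted p = 0.0303 and 0.00274). In ΔNLS against control 2 genes of this list were higher, where 14.8% of all genes were. PTGR3, a further prostaglandin reductase, differed by 0.88 ± 0.23 SE and ABCC4, an exporter of PGE2, by 0.44 ± 0.12 (limma, adjusted p = 0.0308 and 0.0361).

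Genes of the cyclic AMP response, which lies downstream of EP2 and EP4, were read as a list of 16. In IL-33 against control 2 were higher, 0 lower and 14 did not pass, where 7.65% of all genes were called. CREM, a transcription factor of this response, rose from 7.56 to 8.65, 8.68 and 8.79 in full-length clones 3, 5 and 9 (1.15 ± 0.12 SE, limma, adjusted p = 0.00939), with 7.67 and 7.62 in the ΔNLS clones. PDE4B, a phosphodiesterase that degrades cyclic AMP, rose from 5.51 to 7.35, 6.92 and 7.71 (1.82 ± 0.33, adjusted p = 0.0338), and was below background, at 4.53 and 4.05, in the ΔNLS clones. In ΔNLS against control 1 of the 16 was higher and 5 were lower, which is near the 38.3% of all genes called. The higher one was NR4A1, at 5.65 in the control, 5.97 to 5.98 in the full-length clones, and 6.17 and 6.35 in the ΔNLS clones. Its difference of ΔNLS from control was 0.61 ± 0.13 SE (limma, adjusted p = 0.01475). The lower ones included PDE4D, a related phosphodiesterase, at 6.34 in the control, 6.12 to 6.91 in the full-length clones, and 3.18 and 3.20 in the ΔNLS clones (-3.15 ± 0.34 as fitted, adjusted p = 0.00296, with a bound of -1.54 when ΔNLS was set to background). In IL-33 against ΔNLS 8 of the 16 were higher, 1 was lower and 7 did not pass. Over all genes 31.4% were higher and 16.1% lower there. The lower one was NR4A1 (-0.29 ± 0.09 SE, limma, adjusted p = 0.0488). Over the 16 genes the median difference was 0.11 in IL-33 and -0.02 in ΔNLS, against 0.04 and -0.09 over all genes. The calls of CREM and PDE4B in IL-33 against control, like those of all other genes, were lost when either of the ΔNLS arrays was left out.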

How the data were processed

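RNA was extracted by the authors from U87 cells, labelled by in vitro transcription from the 3′ end and hybridized to PrimeView arrays. Deposited values are log2 signals, 1 per probe set and array, normalized by the authors; the submitters' processing notes name Partek 6.0, and neither background correction nor normalization method is given in the sources used here. As to scale, the log base was taken as 2, since the maximum (14.16) exceeded the natural log of a 16-bit reading (11.09). Of 49395 probe sets 44994 had 1 gene symbol, 1832 several and 2569 none; only the first were used. The probe set with the highest mean stood for a gene (18132 genes), and symbols were updated from RefSeq (GRCh38.p14), which held 18112 of them. Sorted values differed by 0.0084 to 0.023 on average among control and IL-33 arrays, and by 0.154 to 0.161 between these and the ΔNLS arrays.

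All 6 arrays entered 1 limma 3.58.1 fit in R 4.3.3 (eBayes with trend; 3 residual and 2.81 prior degrees of freedom), with two-sided p-values adjusted (Benjamini-Hochberg) across all genes at a threshold of 0.05. The methods of the study name a count test, which was not used on array signals. A bound sets signals below background to 4.80. The test was run on simulated data with independent noise and without the shift of the ΔNLS arrays, so it does not cover that shift. There it recovered 44.8 to 71.6% of changes of 1 log2 unit and 92.4 to 100% of changes of 3, with 5 to 9 false calls. Members and lists were chosen with earlier results of these data known. Named genes were the 9 members, IL33, IL1B, the 5 genes most like PTGS2 and the 5 most like PTGES (the other member of largest range), and up to 6 genes passing the test per list, ranked by p. MMP3, NFKBIZ and TNFAIP3 were described further after their values were seen, as was CDKN2A, a marker of the line. Of the lists, 1 phospholipase, 1 lipoxygenase-branch and 2 cyclic AMP genes had no probe set of their own here. Alternatives were the mean of probe sets, single probe sets, a fit on the compared arrays alone, each clone left out in turn, eBayes without trend or with a robust prior, quantile normalization, median centring, and a background filter. Arrays have no read depth, and their number limits the precision.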

Additional observations from a re-analysis of the deposited data

Results flagged for a closer look

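Differences between the full-length and ΔNLS constructs passed the test in 6 of the 9 genes (limma, IL-33 minus ΔNLS, adjusted over all genes), in a comparison in which 47.5% of all genes passed. They were 2.21 for PLA2G4A (adjusted p = 0.00101), 4.88 for PTGS2 (0.00645), 0.94 for PTGER2 (0.00171), 0.87 for PTGS1 (0.00232), 0.97 for HPGD (0.00263) and -0.33 for PTGES2 (0.0215). The ΔNLS signal of PTGS2 and PTGS1 was below background, which leaves bounds of 3.77 and 0.04, and for HPGD no signal was above it. The construct and the set of arrays cannot be told apart in any of these.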

How the results depend on the processing

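No paired analysis was possible because the IL-33 and ΔNLS clones share only the number 3, and the control has none. Over the 9 genes and 3 comparisons, 318 values under an alternative kept their direction and side of the threshold, 8 newly passed, 13 no longer passed and 6 changed sign. Those 6 were PTGS1 in IL-33 against control (0.0033 without full-length clone 3 or clone 5, -0.045 without clone 9), HPGD there (-0.41 with the mean of probe sets, -0.013 after quantile normalization), PLA2G4A in ΔNLS against control (0.012 without ΔNLS clone 4, -0.435 without clone 3) and PTGER4 in IL-33 against ΔNLS (-0.19 without full-length clone 5, 0.58 without clone 3), and none passed. Of the 13, most came from leaving out a clone; the mean of probe sets ended the calls of PTGS1 (0.05) and HPGD (0.28, adjusted p = 0.0506) in IL-33 against ΔNLS.

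Over all genes, IL-33 against control gave 1387 calls, 0 with only its own arrays (4445 at an unadjusted p under 0.05, limma), 3316 among single probe sets, and 0 to 1650 without 1 clone, with 0 without either ΔNLS clone and 341 without full-length clone 9. ΔNLS against control gave 6947, 17788 among probe sets, and 3607 to 7704 without 1 clone. IL-33 against ΔNLS gave 8621, 5385 among genes above background, 21159 among probe sets, and 4728 to 8427 without 1 clone. The numbers of members called were 1, 4 and 6. They were 0 when the ΔNLS arrays were left out and 0 to 1 without 1 clone in the first comparison, 2 among genes above background and 3 to 6 without 1 clone in the second, and 4 to 7 without 1 clone in the third. The filter on background left out PTGS1 and HPGD, which have no value under it. Every fit without 1 clone had fewer arrays, both where calls were lost and where they rose (to 1650 in IL-33 against control). What moved the calls was not tested. Below background, as for HPGD on every array and PTGS1 in ΔNLS, signals give no fold or only a bound.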

Other observations

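The lipoxygenase branch, which turns arachidonic acid into leukotrienes, had 0 of 12 genes called in IL-33 against control, 2 higher in ΔNLS against control and 3 lower in IL-33 against ΔNLS, where 7.65%, 38.3% and 47.5% of all genes were called. LTA4H, the hydrolase that makes leukotriene B4, was at 7.74 in the control, 8.18 to 8.40 in the full-length clones, and 8.24 and 8.20 in the ΔNLS clones, above the control in all 5 clones. It passed in ΔNLS (0.48 ± 0.14 SE, limma, adjusted p = 0.0407) and not in IL-33 (0.53 ± 0.13, adjusted p = 0.0676). LTB4R, a leukotriene B4 receptor on chromosome 14, was at 4.86 in the control, 4.75 to 4.86 in the full-length clones, and 5.60 and 5.63 in the ΔNLS clones (0.76 ± 0.11, adjusted p = 0.00578). It was above background on 4 arrays, by little in the control, and below it in full-length clones 3 and 9.

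Of 7 further prostanoid receptors 0 passed in IL-33 against control, where 7.65% of all genes were called. In IL-33 against ΔNLS 2 were higher and 3 lower, where 31.4% of all genes were higher and 16.1% lower. PTGDR2, a receptor of prostaglandin D2, was at 5.59 in the control, 5.77 to 5.88 in the full-length clones, and 5.16 and 5.26 in the ΔNLS clones, and was higher in IL-33 than in ΔNLS (0.60 ± 0.09 SE, limma, adjusted p = 0.00412). Its ΔNLS signals were close to those of MTAP (5.07 to 5.42), a gene known to be deleted in U87. TBXA2R, the thromboxane receptor, was at 7.19 in the control, 6.73 to 7.15 in the full-length clones, and 7.54 and 7.35 in the ΔNLS clones, and was lower in IL-33 than in ΔNLS (-0.49 ± 0.15 SE, limma, adjusted p = 0.0402). PTGFR and PTGER3, which encodes EP3, were also called lower in IL-33 than in ΔNLS and were not above background on any array. PTGER1, called higher, was above background only in the full-length clones, and its difference from ΔNLS came down to a bound of 0.05.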
